A study of Drosophila mojavensis with 127 samples.

Results

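The transcripts that distinguished mated from nonmated females were described in the Organ Pipe National Monument stock (OPNM) of Drosophila mojavensis, a cactus-breeding fly of the Sonoran Desert. All arrays whose titles gave OPNM and female were taken, which made 16 of the 127 arrays of the series. The mating difference was the mean of the mated minus the mean of the nonmated arrays, with the host plants weighted equally, and each host was also taken alone. The 16 arrays formed 4 groups of 4: mated and nonmated females raised on fermenting pitaya agria (Stenocereus gummosus), and mated and nonmated females raised on fermenting organ pipe cactus (Stenocereus thurberi). All 4 groups were wild-type flies of a single stock, OPNM08, originally from Arizona, and neither the tissue nor the age of the flies nor the time after mating is given in the labels. The series also held females of 3 other populations, Punta Onah (PO, 16 arrays), Punta Prieta (PP, 15 arrays) and San Quintin (SQ, 17 arrays), and males of every population, including 16 arrays of OPNM males, all raised on the same hosts. Total RNA labelled with Cy3 was hybridised to single-colour NimbleGen arrays, and each array gave 14528 log2 values, one for each transcript identifier.

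Mating in Drosophila transfers sperm together with seminal fluid proteins made in the male accessory glands. In Drosophila melanogaster these proteins act on the female reproductive tract and nervous system, and egg production and laying rise while receptivity to further mating falls. Sperm and seminal fluid RNA can also be carried into the female, and transcripts of the ovary and of eggs make up much of what is more abundant in adult females than in males. The files do not pair the transcript identifiers with gene names, so the results are given by identifier and by sex-bias class.

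Sex-bias classes were taken from the nonmated flies of the other 3 populations, so that they used no OPNM array. A transcript was female-biased or male-biased when the sexes differed at an adjusted p under 0.05 and by more than 2-fold, which gave 3084 female-biased transcripts (21.2%), 2306 male-biased transcripts (15.9%) and 9138 transcripts in neither class (62.9%). A sex index, computed as the average over 200 strongly male-biased transcripts minus that over 200 strongly female-biased ones (the largest sex differences of each class), lay between -4.76 and -3.80 on the log2 scale in all 16 OPNM female arrays. It lay between 3.85 and 4.89 in 15 of the 16 OPNM male arrays and at 1.06 in replicate 1 of mated males on agria, an array whose group mean enters only the comparison with males, although its spread is part of the error estimate that all comparisons share.

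Array medians of the OPNM females ran from 10.28 to 10.58. Within their groups, the arrays correlated across transcripts at a mean r of 0.933 to 0.990, and the 2 lowest were replicates 2 (0.933) and 1 (0.946) of mated females on agria. The median SD over transcripts was 0.278 in mated and 0.190 in nonmated females on agria, 0.205 in mated and 0.155 in nonmated females on organ pipe, and 0.122 to 0.278 in the 12 other female groups. Counts are therefore given with and without those 2 arrays. Nothing in the labels ties the replicates to separate cultures. The p-values of the main fit cover the spread among replicate arrays, pooled over all 32 groups of the series, possibly technical, and no more.

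Over both hosts, fewer transcripts were higher than lower in mated OPNM females, and those that rose by 2-fold or more were nearly all female-biased. A transcript was called when its adjusted p (limma, Benjamini-Hochberg over all 14528 transcripts, two-sided) was under 0.05. Of the 14528 transcripts, 1774 (12.2%) were called, 475 of them higher (3.27%) and 1299 lower (8.94%) in mated females. By 2-fold or more, 47 were higher (0.324%) and 107 lower (0.737%). Leaving out 1 array at a time, those counts ran from 35 to 52 and from 62 (without replicate 2 of nonmated females on agria) to 171 (without replicate 4 of mated females on agria). In bulk RNA, fewer cells of a type and less RNA per cell cannot be told apart. With the 2 arrays least like their group left out, 1019 transcripts were called, 166 higher and 853 lower, and without replicate 2 of nonmated females on agria 1098 were called, 185 higher and 913 lower. The excess of lower over higher calls turned with the scaling: higher transcripts were 26.8% of the calls on the deposited values and 59.1% when each array was shifted to the same median, which moved the median difference of all transcripts to 0.08.

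FBtr0163647, a female-biased transcript, showed the largest rise among transcripts whose mated and nonmated arrays did not overlap in either host. Its log2 values were 13.32, 11.31, 12.12 and 13.05 in mated and 10.15, 8.28, 11.03 and 10.42 in nonmated females on agria. On organ pipe they were 12.90, 13.55, 13.54 and 13.36 in mated and 11.01, 10.83, 11.57 and 11.13 in nonmated females. Every mated array was above every nonmated array of its host, by the least on agria, where replicate 2 was the lowest of both its groups. The log2 difference between 8 mated and 8 nonmated arrays was 2.34 ± 0.35 (SE), a 5.07-fold rise with an adjusted p of 6.15e-07 in limma. This SE, like the others beside mating differences, rests on the spread pooled over all 32 groups of the series.

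FBtr0172291, also female-biased, held 10.82, 10.91, 11.01 and 11.74 in mated and 8.46, 8.98, 8.94 and 10.12 in nonmated females on agria. On organ pipe its values were 10.73, 11.12, 11.04 and 11.15 in mated and 8.80, 9.26, 8.28 and 8.51 in nonmated females. The groups were apart in both hosts, and the 4 mated arrays on organ pipe lay within a narrow band. The log2 difference was 2.15 ± 0.27 (SE), or 4.43-fold, with a limma adjusted p of 6.51e-09.

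FBtr0169137, in neither sex-bias class, fell the most. Its values on agria were 9.35, 9.01, 9.58 and 10.30 in mated and 11.05, 12.42, 10.99 and 11.92 in nonmated females. On organ pipe they were 9.29, 10.36, 10.50 and 10.45 in mated and 12.23, 12.66, 12.14 and 11.09 in nonmated females. The groups did not overlap, although replicate 4 of the nonmated females on organ pipe was the nearest to the mated arrays there. It was 3.88-fold lower in mated females (log2 difference -1.96 ± 0.33, SE, limma adjusted p 6.98e-06).

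FBtr0168580, likewise in neither class, held 9.48, 10.12, 10.25 and 10.90 in mated and 11.52, 12.73, 11.91 and 12.46 in nonmated females on agria. Its values on organ pipe were 10.11, 11.20, 11.02 and 11.13 in mated and 12.50, 12.62, 12.40 and 11.29 in nonmated females. The gap between the groups on organ pipe was small, since replicate 4 of the nonmated females lay just above the highest mated array. The log2 difference was -1.65 ± 0.32 (SE), a 3.14-fold fall with a limma adjusted p of 7.29e-05. All 4 of these transcripts kept their call under each alternative run.

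**Figure D1:**
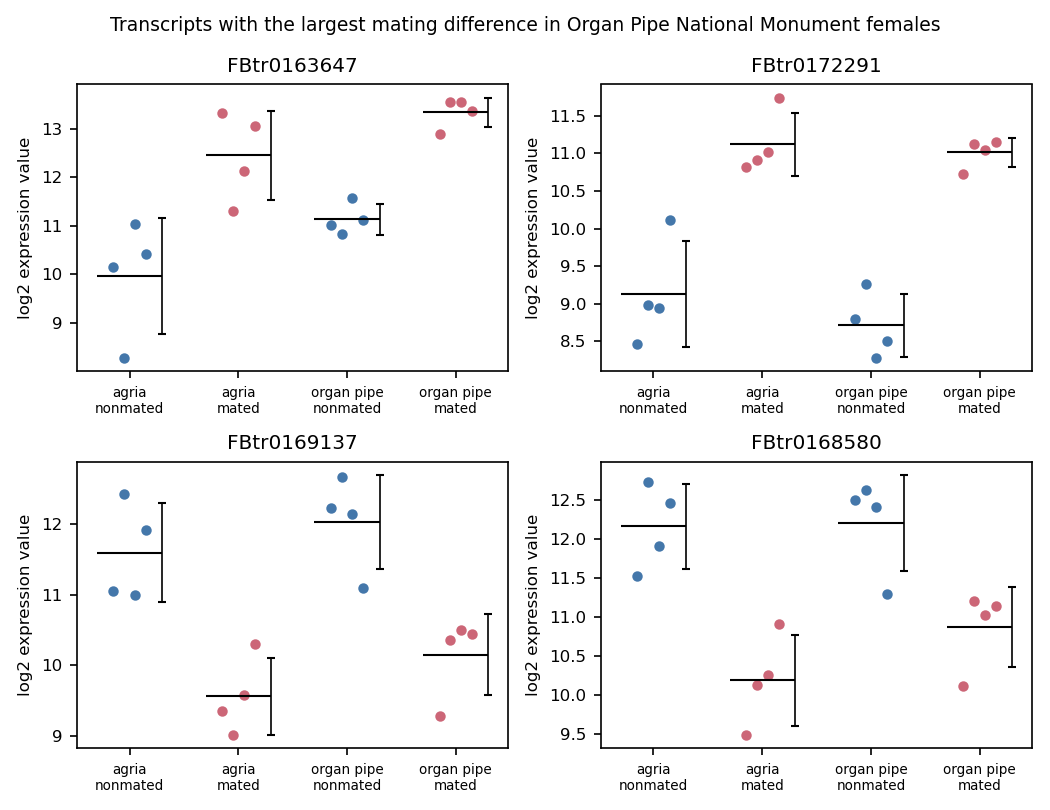
Log2 expression (vertical axis) of FBtr0163647, FBtr0172291, FBtr0169137 and FBtr0168580 in mated and nonmated OPNM females on each host; points are single arrays, lines group means and bars the SD over 4 arrays. Mated arrays lie above nonmated arrays of the same host for the first pair of transcripts and below them for the second pair.

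The transcripts raised by 2-fold or more were described as a list of 47 and those lowered by 2-fold or more as a list of 107; both were chosen on these arrays, so their values in OPNM females are a description. In the raised list, 45 were female-biased, 1 was male-biased and 1 was in neither class, against 21.2% female-biased among all transcripts. In the lowered list none was female-biased, 22 were male-biased and 85 were in neither class. Log2 differences reached 2.34 in the raised list (median 1.30) and -1.96 in the lowered list (median -1.13). Without the 2 arrays least like their group, all 47 of the raised and 55 of the 107 lowered transcripts still differed by 2-fold or more.

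Averaged over the 47 transcripts, the raised list stood at 11.83, 11.56, 11.73 and 12.62 in mated and 10.25, 10.84, 10.93 and 11.27 in nonmated females on agria. On organ pipe it stood at 12.07, 12.62, 12.25 and 12.14 in mated and 10.87, 10.82, 10.10 and 10.67 in nonmated females. All mated arrays were above all nonmated arrays, and the 2 groups were closest on agria. The lowered list averaged 9.69, 10.01, 10.21 and 10.91 in mated and 11.27, 12.20, 11.33 and 11.74 in nonmated females on agria. It averaged 10.54, 10.74, 10.90 and 10.94 in mated and 11.88, 12.09, 11.82 and 11.16 in nonmated females on organ pipe. The arrays did not overlap here either, and replicate 4 was the mated array nearest to the nonmated ones in each host.

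Single transcripts separated the arrays less often than these averages. The mated and nonmated arrays did not overlap in either host for 19 of the 47 raised and 66 of the 107 lowered transcripts, against 93 higher (0.64%) and 358 lower (2.46%) among all transcripts. Of the raised list, 44 were separated on organ pipe and 20 on agria, where 12.5% of all transcripts were separated on agria and 6.72% on organ pipe. Of the lowered list, 81 were separated on agria and 74 on organ pipe.

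Among all called transcripts, the classes went different ways. Of the female-biased transcripts, 239 (7.75%) were called higher and 6 (0.195%) lower in mated OPNM females, with a median log2 difference of 0.18 over the class. Of the male-biased transcripts, 32 (1.39%) were called higher and 232 (10.1%) lower, with a median of -0.06. Of those in neither class, 204 (2.23%) were called higher and 1061 (11.6%) lower, with a median of -0.04. These class counts were sensitive to single arrays: female-biased transcripts called higher numbered 100 without replicate 2 of nonmated females on agria, 384 without replicate 3 of mated females on organ pipe, and 95 without the 2 arrays least like their group. Male-biased transcripts called higher ran from 19 to 36 and those of neither class from 66 to 336 when 1 array was left out, the lowest of both without replicate 2 of nonmated and the highest of both without replicate 4 of mated females on agria. With every array at the same median, 800 of the female-biased transcripts were called higher.

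**Figure D2:**
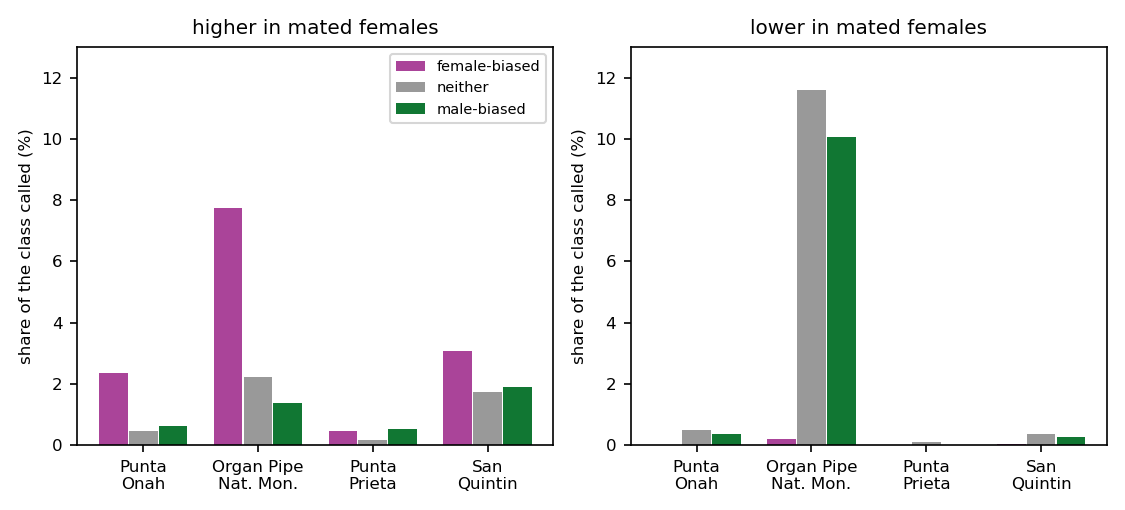
Percent of the female-biased, male-biased and remaining transcripts (vertical axis) called higher or lower in mated females of each population. In OPNM, 7.75% of the female-biased transcripts were called higher and 0.195% lower, while 10.1% of the male-biased and 11.6% of the remaining transcripts were called lower; the classes were defined on nonmated PO, PP and SQ flies, so that only the OPNM bars are independent of them.

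On agria, 1304 transcripts (8.98%) were called, 321 higher (2.21%) and 983 lower (6.77%) in mated females. By 2-fold or more, 24 were higher (0.165%) and 263 lower (1.81%). The number rested on few arrays: 865 (75 higher and 790 lower) were called without replicate 2 of the mated females, 753 (106 and 647) without replicate 3 of the mated females, 1897 (713 and 1184) without replicate 4 of the mated females, 466 (35 and 431) without replicate 2 of the nonmated females, and 242 (12 higher and 230 lower) without replicates 1 and 2 of the mated females together. The 2-fold higher count fell to 14 without replicate 2 of the nonmated females. The 2-fold lower count was 124 without that array, 148 without replicate 1 and 446 without replicate 4 of the mated females. Shifting every array to the same median raised the share of higher calls on agria from 24.6% to 50.7%.

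The largest rises on agria, after the transcripts already named, were in 2 female-biased transcripts. FBtr0163651 held 14.62, 13.88, 13.85 and 14.54 in mated and 12.07, 11.31, 13.52 and 12.31 in nonmated females on agria. Replicate 3 of the nonmated females lay close to the mated arrays, and the log2 difference was 1.92 ± 0.56 (SE, limma adjusted p 0.0175). The call was lost without replicate 1 of the mated females, without replicate 2 of the nonmated females, and without the 2 arrays least like their group. FBtr0165289 held 11.44, 11.12, 10.89 and 12.52 in mated and 9.44, 9.05, 10.08 and 10.07 in nonmated females on agria. These groups were apart, with a log2 difference of 1.83 ± 0.44 (SE, limma adjusted p 0.00249), and on organ pipe the difference was 2.38 ± 0.44 (adjusted p 0.000551).

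The largest falls on agria came from mated arrays that split into pairs. FBtr0161173, male-biased, held 9.21, 11.64, 9.04 and 12.17 in mated and 12.76, 13.13, 12.55 and 12.85 in nonmated females on agria. The organ pipe values were 12.22, 12.35, 12.27 and 12.45 in mated and 12.60, 12.57, 12.64 and 12.67 in nonmated females. The organ pipe groups did not overlap, as for 6.72% of all transcripts. Replicates 1 and 3 of mated females on agria were far below every other array, and replicates 2 and 4 lay much nearer to the rest. The log2 difference was -2.31 ± 0.47 (SE, 4.97-fold lower, limma adjusted p 0.000276) on agria and -0.30 ± 0.47 on organ pipe. FBtr0171887, in neither class, held 9.85, 12.03, 9.84 and 12.55 in mated and 13.14, 13.35, 13.01 and 13.15 in nonmated females on agria, with the same 2 arrays low. On organ pipe FBtr0171887 held 12.64, 12.71, 12.66 and 12.71 in mated and 13.28, 12.95, 13.08 and 13.08 in nonmated females, again without overlap. Its log2 difference was -2.10 ± 0.43 (SE, 4.28-fold lower, limma adjusted p 0.000333) on agria and -0.42 ± 0.43 on organ pipe. For both transcripts the SE rests on the spread shared by all 32 groups, and does not measure the scatter on organ pipe alone. Once each transcript was centred on its own mean, the values of this pair differed by at most 0.37 on any of the 16 arrays; the pair was set side by side after its values were seen, and whether the identifiers share a probe or a gene was not tested.

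**Figure D3:**
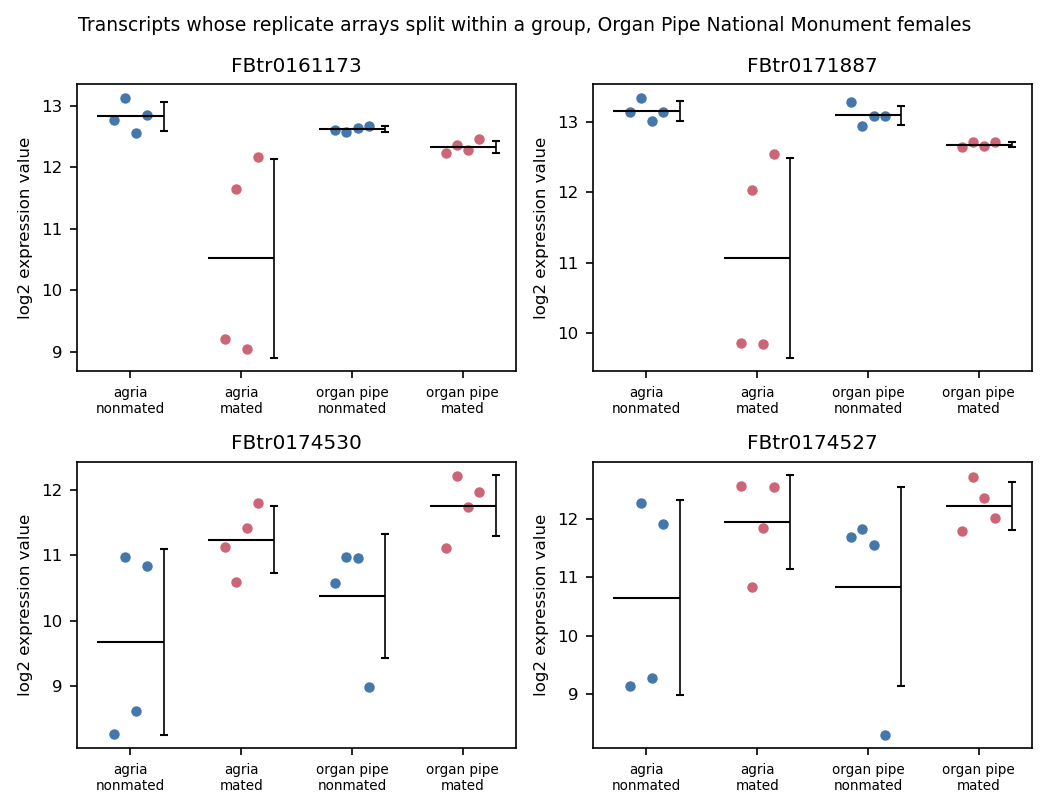
Log2 expression (vertical axis) of FBtr0161173, FBtr0171887, FBtr0174530 and FBtr0174527 by array in the 4 groups of OPNM females; points are arrays, lines group means and bars the SD over 4 arrays, and the transcripts were picked for display after their values were seen. Mated females on agria fall into 2 low and 2 high arrays for the first pair, and nonmated females on agria do so for the second pair.

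On organ pipe, 127 transcripts (0.874%) were called, 55 higher (0.379%) and 72 lower (0.496%). Changes of 2-fold or more numbered 41 upward (0.282%) and 14 downward (0.0964%). Which direction held more calls depended on single arrays. Without replicate 1 or 2 of the mated females the number called was 47 (40 higher and 7 lower) or 32 (18 and 14). Without replicate 1, 2 or 3 of the nonmated females it was 42 (29 and 13), 35 (31 and 4) or 47 (24 and 23), and without replicate 4 of the nonmated females it was 292 (51 and 241). Leaving out each of the 16 arrays in turn, the 2-fold counts ran from 16 (without mated replicate 2 on organ pipe) to 43 upward and from 1 (without nonmated replicate 2 on organ pipe) to 74 (without nonmated replicate 4 on organ pipe) downward. When only the 16 arrays of OPNM females entered the fit, 32 were called. The share of higher calls was 43.3% on the deposited values and 59.3% with every array at the same median.

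FBtr0168945, female-biased, showed the largest rise on organ pipe. It held 12.42, 12.80, 11.86 and 12.00 in mated and 9.54, 9.92, 8.34 and 10.85 in nonmated females there. The groups did not overlap, and replicate 4 was the nonmated array nearest to the mated ones; the log2 difference was 2.61 ± 0.46 (SE, 6.10-fold, limma adjusted p 0.000279). On agria, where the arrays overlapped (12.71, 11.68, 12.73 and 12.60 against 11.02, 10.62, 11.69 and 11.44), the difference was 1.24 ± 0.46 and was not called. FBtr0163948, also female-biased, held 10.94, 11.33, 11.15 and 11.09 in mated and 9.43, 9.60, 8.35 and 8.62 in nonmated females on organ pipe, without overlap. It rose by 2.13 ± 0.35 (SE, 4.36-fold, limma adjusted p 8.59e-05) on organ pipe and by 1.75 ± 0.35 (adjusted p 0.000264) on agria.

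The largest falls on organ pipe were in transcripts of neither class. FBtr0168128 held 8.86, 9.32, 9.09 and 9.81 in mated and 11.26, 11.31, 11.19 and 9.83 in nonmated females. The lone nonmated array at 9.83, replicate 4, was level with the highest mated array, and the difference was -1.63 ± 0.41 (SE, limma adjusted p 0.0241), a call lost in 7 of the alternatives. FBtr0173706 held 8.59, 9.15, 9.22 and 8.90 in mated and 10.79, 10.83, 10.52 and 9.88 in nonmated females, with replicate 4 again the lowest nonmated array. Its difference was -1.54 ± 0.34 (SE, limma adjusted p 0.00725), a call lost in 4 of the alternatives.

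The mating difference was not called as different between the hosts for any transcript. The test of the difference itself (limma, organ pipe minus agria) called 0 of 14528, with a smallest adjusted p of 0.334 and 444 transcripts (3.06%) at an unadjusted p under 0.05. It called 188 with estimated array weights and 9 without replicate 4 of mated females on agria. This does not show that the responses were alike; for FBtr0161173 the difference between hosts was 2.01 ± 0.66 (SE, adjusted p 1.0).

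Of the 1304 transcripts called on agria, 1268 (97.2%) had the same sign on organ pipe, and of the 127 called on organ pipe, 126 (99.2%) had the same sign on agria. Among all 14528 transcripts, called or not, 10837 had the same sign in both hosts. Called in both hosts, in the same direction, were 90, or 6.90% of the agria calls and 70.9% of the organ pipe calls. Transcripts called on agria had median log2 differences of 0.47 (higher) and -0.80 (lower) there and of 0.15 and -0.40 on organ pipe. Those called on organ pipe had medians of 1.35 (higher) and -0.78 (lower) there and of 0.78 and -0.88 on agria. These lists were each chosen in 1 host, so the sizes are a description. Among all transcripts called over both hosts, 350 of the 475 higher ones (medians 0.45 on agria and 0.26 on organ pipe) and 1083 of the 1299 lower ones (medians -0.68 and -0.42) had the larger difference on agria. So did 9041 of all 14528 transcripts, called or not, by the size of the difference without its sign. The 47 raised by 2-fold or more went the other way, with 41 larger on organ pipe (medians 1.63 and 1.06 on agria), and 90 of the 107 lowered by 2-fold or more were larger on agria (medians -1.36 and -0.92 on organ pipe). Across all 14528 transcripts, the agria and organ pipe differences, which use different arrays of one stock, correlated at r = 0.673 (Spearman's rho 0.648); transcripts are not independent replicates.

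**Figure D4:**
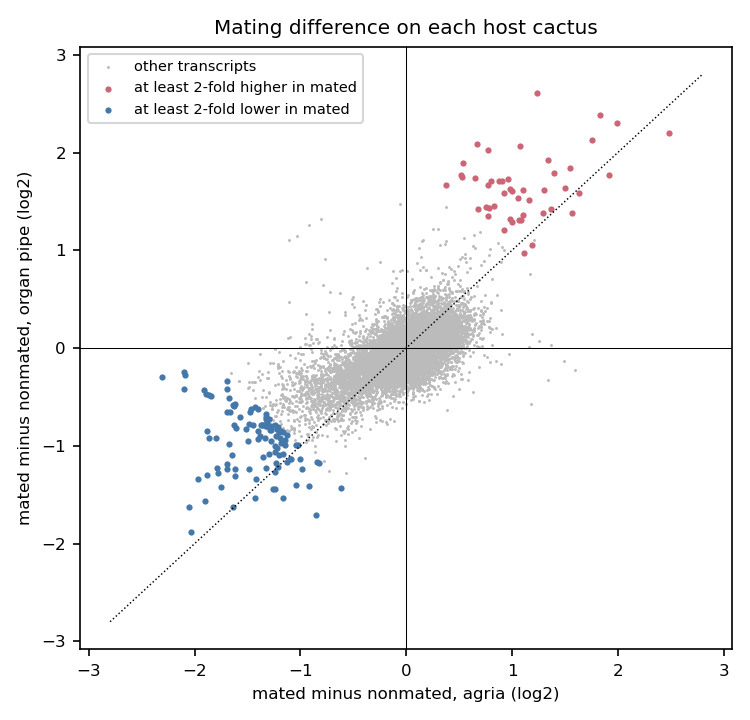
Mated minus nonmated log2 difference on agria (horizontal axis) and on organ pipe (vertical axis), one point for each of 14528 transcripts in OPNM females; red marks the 47 raised and blue the 107 lowered by 2-fold or more over both hosts, and the dotted line marks equal differences. Most red points lie above the line, 41 of 47, and most blue points also lie above it, 90 of 107 having the larger fall on agria.

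The raised list was read next in females that had not been used to choose it. All 47 were called higher in mated PO females (median log2 difference 1.55, with 0.895% of all transcripts called higher) and in mated SQ females (median 1.77, with 2.04% called higher). In PP females 42 of the 47 were positive and 7 were called higher (median 0.40, with 0.289% of all transcripts called higher). FBtr0163647, for example, rose by 2.79 in PO and 2.42 in SQ, and its difference of 1.22 in PP was not called. FBtr0172291 rose by 2.04 in PO and 2.08 in SQ, and its difference of 0.57 in PP was not called.

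For the mean of the raised list, the population that stood apart was PP, among nonmated females. Mated females averaged 12.10 ± 0.39 in OPNM, 12.25 ± 0.35 in PO, 12.64 ± 0.23 in PP and 12.70 ± 0.15 in SQ (SD; 8 arrays each in OPNM, PO and PP, 7 replicates in SQ). Nonmated females averaged 10.72 ± 0.38 in OPNM, 10.61 ± 0.48 in PO, 10.92 ± 0.70 in SQ and 12.12 ± 0.53 in PP (SD, 7 replicates in PP and 8 elsewhere). One nonmated PP array was at 10.96, within the range of nonmated females elsewhere. The nonmated PP mean exceeded the others by more than these SDs, and the nonmated OPNM and PO means differed by less than them.

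Fewer members of the lowered list were called outside OPNM. In the mean of the other 3 populations, 20 of the 107 (18.7%) were called lower, against 2.11% of all transcripts. Of the 107, 97 were negative in PO with 9 called lower (median -0.40). In PP 53 were negative with 5 called lower (median 0.01), and in SQ 61 were negative with 8 called lower (median -0.08). Of all 14528 transcripts, 7575 were negative in PO, 7520 in PP and 6645 in SQ. Among all transcripts, 184 (1.27%) were called in PO, 51 (0.351%) in PP and 337 (2.32%) in SQ, with 0.372%, 0.0619% and 0.275% called lower. Its mean stood at 10.49 ± 0.47 in mated and 11.69 ± 0.39 in nonmated OPNM females. The mated and nonmated means were 11.10 ± 0.67 and 11.47 ± 0.65 in PO, 11.38 ± 0.47 and 11.38 ± 0.52 in PP, and 11.03 ± 0.25 and 11.11 ± 0.98 in SQ (SD). Pooled over hosts, the mated and nonmated means of each other population were within 1 SD of each other. The hosts differed in SQ, where the list stood at 11.13 ± 0.28 in mated and 11.83 ± 0.35 in nonmated females on agria (4 each) and at 10.90 ± 0.17 in mated and 10.39 ± 0.85 in nonmated females on organ pipe (3 and 4).

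**Figure D5:**
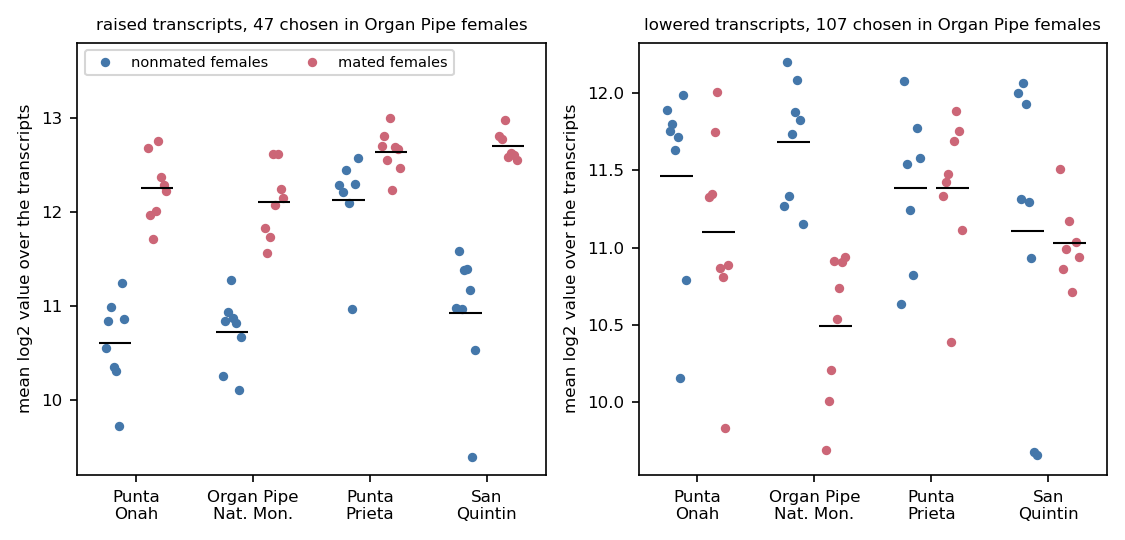
Mean log2 value of the raised list (47 transcripts) and of the lowered list (107 transcripts) on the vertical axis, by array, in mated and nonmated females of the 4 populations, hosts pooled; points are replicates of both hosts and lines their means. Mated and nonmated points of the raised list are apart in OPNM, PO and SQ and overlap in PP, where most nonmated points sit near the mated level; those of the lowered list are apart in OPNM and overlap in PO, PP and SQ.

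The mating differences of OPNM females and of the mean of the other 3 populations were compared directly. This test called 1914 transcripts (13.2%), 827 with a more positive (5.69%) and 1087 with a more negative difference in OPNM (7.48%); by 2-fold or more, 2 were more positive (0.0138%) and 100 more negative (0.688%). The count was 401 (61 and 340) without the 2 arrays least like their group. It was 966 without replicate 2 of mated and 753 without replicate 2 of nonmated females on agria, and 1070, 1213 and 1269 without replicate 1 of mated or replicates 1 and 2 of nonmated females on organ pipe. More positive differences were 43.2% of the calls on the deposited values, 72.1% with every array at the same median, and 58.4% with only female arrays in the fit.

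None of the 47 raised transcripts was called as different between OPNM and the other populations (median of the differences 0.09), and 85 of the 107 lowered transcripts were called more negative in OPNM (median -1.02). The comparison shares the OPNM arrays on which the lists were chosen. FBtr0169137 was called more negative in OPNM (2.84-fold, limma adjusted p 0.00577), and its differences of -0.65 in PO, -0.22 in PP and -0.49 in SQ were not called. For FBtr0168580 the OPNM difference minus that of the other populations was -1.46 ± 0.37 (SE, adjusted p 0.00533), beside differences of -0.38 in PO, -0.24 in PP and 0.04 in SQ that were not called either.

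The transcripts with the largest differences between OPNM and the other populations depended on few arrays. FBtr0170033, in neither class, held 10.59, 9.98, 12.61 and 13.17 in mated and 13.34, 14.10, 13.23 and 13.23 in nonmated OPNM females on agria. Values on organ pipe were 13.29, 12.61, 13.05 and 13.02 in mated and 14.06, 14.22, 13.86 and 13.23 in nonmated females. Replicates 1 and 2 of mated females on agria were low and the others were not. Its mating difference was -1.37 ± 0.41 in OPNM and 0.60 ± 0.24 in the other populations (SE), which differed by -1.97 ± 0.47 (limma adjusted p 0.00335). FBtr0163110, also in neither class, held 9.28, 9.58, 12.41 and 13.09 in mated and 12.33, 13.70, 11.96 and 12.35 in nonmated females on agria, with the same 2 mated arrays low. Its own mating difference in OPNM, -0.95 ± 0.44, was not called, and it differed from the others by -1.92 ± 0.52 (SE, limma adjusted p 0.00885). Without those 2 arrays, the adjusted p was 0.0975 for FBtr0170033 and 0.194 for FBtr0163110, so that neither was called.

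In the opposite direction, FBtr0163021, female-biased, held 8.09, 10.24, 9.28 and 7.84 in mated and 7.92, 7.64, 7.73 and 9.01 in nonmated OPNM females on agria. On organ pipe it held 8.33, 8.01, 7.77 and 8.72 in mated and 7.74, 7.86, 8.65 and 7.77 in nonmated females. The groups overlapped in both hosts, and the OPNM difference of 0.50 was not called, while the difference from the other populations was 1.01 ± 0.29 (SE, limma adjusted p 0.0149). FBtr0165853, in neither class, gave 1.01 ± 0.32 (SE, limma adjusted p 0.0283) against the other populations, with an OPNM difference of 0.59 that was not called and arrays between 7.72 and 10.41 that overlapped in both hosts. Its call was lost in 7 of the alternatives, and that of FBtr0163021 was lost without replicate 2 of mated females on agria and without the 2 arrays least like their group.

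By sex-bias class, the direct comparison called 478 female-biased transcripts (15.5%) more positive and 9 (0.292%) more negative in OPNM (median 0.24). It called 29 male-biased transcripts (1.26%) more positive and 236 (10.2%) more negative (median -0.23). In neither class, 320 were more positive and 842 more negative (median -0.06). The nonmated arrays of the other populations both defined the classes and entered this comparison, so these counts are a description and not independent of the classes.

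Nonmated and mated OPNM females were each also set against the other populations at the same mating status. Among nonmated females 1568 transcripts (10.8%) were called, 993 higher (6.84%) and 575 lower (3.96%) in OPNM. Among mated females 1509 (10.4%) were called, 634 higher (4.36%) and 875 lower (6.02%). Of the female-biased transcripts, 10 (0.324%) were called higher and 262 (8.50%) lower in nonmated OPNM females, whereas 154 (4.99%) were called higher and 40 (1.30%) lower in mated ones. Of the male-biased transcripts, 174 (7.55%) were called higher and 34 (1.47%) lower in nonmated OPNM females, and 45 (1.95%) were called higher and 184 (7.98%) lower in mated ones. The nonmated females of the other populations also defined the classes, a choice that itself favours lower female-biased and higher male-biased values in nonmated OPNM females. The counts fell to 796 in nonmated females without replicate 2 on agria and to 970 without replicate 1 on organ pipe; in mated females they fell to 669 without replicate 2 on agria, 749 without replicate 1 on organ pipe and 274 without the 2 arrays least like their group. With every array at the same median, the share called higher was 44.8% in place of 63.3% in nonmated and 64.9% in place of 42.0% in mated females.

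These comparisons share arrays with the mating difference, and the lists' values are given side by side. The raised list had a median difference from the other populations of -0.47 in nonmated females, with 12 of 47 called lower, and of -0.39 in mated females, with 6 called lower. The lowered list had a median of 0.37 in nonmated females, with 34 of 107 called higher, and of -0.65 in mated females, with 63 called lower. For the lowered list, the median lay above the other populations in nonmated and below them in mated OPNM females.

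The mating response of the other populations was then followed into OPNM females. A list of 64 transcripts (0.441%) was called and at least 2-fold higher in mated females averaged over PO, PP and SQ, where 870 transcripts (5.99%) were called in all, 564 higher (3.88%) and 306 lower (2.11%); no OPNM array was used to choose it. In OPNM females 63 of the 64 had a positive difference, 51 (79.7%) were called higher, against 3.27% of all transcripts, and 39 were called at least 2-fold higher, against 0.324%, with a median log2 difference of 1.17. The median was 0.82 on agria, where 17 were called higher (2.21% of all transcripts), and 1.44 on organ pipe, where all 64 were positive and 32 were called higher (0.379% of all transcripts). The 39 transcripts made up 83.0% of the OPNM raised list and 60.9% of the list of 64. Of the 64, 55 were female-biased, 5 were male-biased and 4 were in neither class. The difference of the OPNM response from the others had a median of -0.20 over this list, with 4 called smaller in OPNM; the list was chosen on the rise that this comparison subtracts, so a negative median is favoured by the choice.

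FBtr0174530, female-biased, rose by 1.92 ± 0.19 (SE) in the other populations and by 1.47 ± 0.32 in OPNM (limma adjusted p 0.000389). It held 11.13, 10.59, 11.41 and 11.80 in mated and 8.27, 10.97, 8.62 and 10.83 in nonmated females on agria. On organ pipe it held 11.11, 12.21, 11.74 and 11.96 in mated and 10.57, 10.97, 10.96 and 8.98 in nonmated females. Replicates 1 and 3 on agria and replicate 4 on organ pipe were low among the nonmated arrays, and the other nonmated arrays lay close to or among the mated ones. FBtr0174527, female-biased, rose by 1.81 ± 0.22 (SE) in the other populations and by 1.34 ± 0.36 in OPNM (limma adjusted p 0.00639). Mated females held 12.56, 10.84, 11.85 and 12.54 on agria and 11.79, 12.72, 12.36 and 12.02 on organ pipe. Nonmated females held 9.13, 12.28, 9.28 and 11.91 on agria and 11.69, 11.83, 11.55 and 8.29 on organ pipe, with the same 3 arrays low.

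The other populations had 2 transcripts (0.0138%) that fell by 2-fold or more, FBtr0163377 and FBtr0167250, both in neither sex-bias class. FBtr0163377 held 9.82, 10.64, 9.97 and 10.33 in mated and 11.28, 12.42, 12.00 and 11.83 in nonmated OPNM females on agria. On organ pipe it held 9.80, 10.35, 10.23 and 10.35 in mated and 11.30, 11.80, 11.45 and 10.91 in nonmated females. No mated array overlapped a nonmated one, and the log2 difference was -1.44 ± 0.18 (SE, limma adjusted p 6.7e-09), with -1.69 on agria and -1.18 on organ pipe, both called. It was also called lower in mated PO (-0.86), PP (-1.01) and SQ females (-1.60) and in mated OPNM males (-0.86). FBtr0167250 was 2.84-fold lower in mated OPNM females (limma adjusted p 2.23e-09), and its log2 differences were -0.84 in PO, -0.97 in PP and -1.63 in SQ females and -0.87 in OPNM males, each called. After centring, the values of these 2 transcripts differed by at most 0.16 on any OPNM female array; whether the identifiers share a probe or a gene was not tested.

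Across all 14528 transcripts, the OPNM female mating difference correlated with that of PO females at r = 0.375 (Spearman's rho 0.063), of PP females at -0.270 (rho -0.480) and of SQ females at 0.131 (rho -0.125). These pairs share no array, and without the 2 arrays least like their group r was 0.439, -0.201 and 0.264. The same quantity was 0.469 between PO and PP, 0.739 between PO and SQ and 0.547 between PP and SQ. Of the 1774 transcripts called in OPNM females, 81.2% had the same sign in PO, 58.8% in SQ and 27.7% in PP. Of these 1774, none in PO, 12 in SQ and 4 in PP were called in the opposite direction. Called in the same direction were 89 higher and 44 lower in PO, 104 and 26 in SQ, and 17 and 7 in PP. Of all transcripts, 1.27% were called in PO, 2.32% in SQ and 0.351% in PP.

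The mating difference was also taken in OPNM males of the same stock. Mating called 496 transcripts in them (3.41%), 411 higher (2.83%) and 85 lower (0.585%) in mated males. Without replicate 1 of mated males on agria, the array with the sex index of 1.06, 160 were called higher and 19 lower. With that array included, 1409 (79.4%) of the 1774 transcripts called in OPNM females had the same sign in males. In the opposite direction, 7 were called. Across all 14528 transcripts, the female and male differences correlated at r = 0.365 (Spearman's rho 0.326). Of the female-biased transcripts, 230 (7.46%) were called higher and 1 (0.0324%) lower in mated males. Of the male-biased ones, 29 (1.26%) were called higher and 23 (0.997%) lower. The direct test of female minus male mating difference called 285 (1.96%), 68 more positive (0.468%) and 217 more negative (1.49%) in females. Without that male array it called 385. The number was 168 without replicate 2 of nonmated females on agria, 162 without replicate 1 of mated females on organ pipe, and 131 without the 2 female arrays least like their group. With only OPNM arrays in the fit it was 60, and with every array at the same median the share more positive in females was 65.4% in place of 23.9%.

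Of the 47 raised transcripts, 1 was called higher in mated males (median 0.37, and 0.13 without that male array), and 13 were called as more positive in females than in males. With that array included, the list averaged 8.83 ± 0.95 in mated and 8.40 ± 0.24 in nonmated males on agria. On organ pipe it averaged 8.65 ± 0.42 and 8.36 ± 0.01. Nonmated females averaged 10.82 ± 0.42 on agria and 10.61 ± 0.35 on organ pipe (SD, 4 arrays each). Whether the male values were near the floor of the arrays was not tested. Of the 107 lowered transcripts, 104 were negative in males, 3 of them called lower (median -0.36, and -0.40 without that array), and 20 were called as more negative in females. In FBtr0172291, from the raised list, the difference was 2.15 in females and -0.09 in males, and the female difference exceeded the male one by 2.23 ± 0.38 (SE, limma adjusted p 0.000111).

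After the transcripts already named, FBtr0172616 and FBtr0168501, both female-biased, differed most toward females. FBtr0172616 rose by 1.30 in females with a difference of -0.18 in males, a gap of 1.48 ± 0.36 (SE, limma adjusted p 0.00934). Its female arrays were apart on organ pipe and overlapped on agria. There mated replicate 2 (10.43) lay below nonmated replicates 2 (10.88) and 4 (10.92). FBtr0168501 rose by 1.61 in females with a difference of 0.17 in males, a gap of 1.44 ± 0.40 (SE, limma adjusted p 0.0378) whose call was lost in 9 of the alternatives. The gap of FBtr0172616 had an adjusted p of 0.0505 when only OPNM arrays were fitted.

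Toward males, FBtr0166853, in neither class, rose by 1.04 in mated males and had a difference of -0.70 in females that was not called, a gap of -1.74 ± 0.39 (SE, limma adjusted p 0.00486, and 0.222 with only OPNM arrays in the fit). FBtr0175092, male-biased, averaged 12.57 ± 0.41 in mated and 11.15 ± 0.27 in nonmated males, against 8.87 ± 0.47 in mated and 8.95 ± 0.26 in nonmated females (SD, 8 arrays each). The male difference was 1.43 ± 0.16, the female difference -0.09 ± 0.16 and the gap -1.51 ± 0.23 (SE, limma adjusted p 1.26e-05).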

How the data were processed

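Expression was measured in 127 samples, 16 of them OPNM females. The deposited values are log2 expression values that the authors made with RMA, per the submitters' processing notes; no version is named, and the log2 scale was inferred from values between 4.64 and 15.78. Scanner files and slide positions were not used here. The arrays have no read depth, and their number limits the precision. Every column of the table was matched to a sample (0 left unused).

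One mean for each of 32 groups was fitted with limma 3.58.1 in R 4.3.3 (lmFit, contrasts.fit, eBayes) to 123 replicates, after arrays of the same group and replicate number (4 San Quintin pairs) were averaged. Residual degrees of freedom were 91, the prior was worth 4.67, and the fit was tested on simulated data. Hosts and populations were weighted equally, p-values were two-sided and adjusted by Benjamini-Hochberg over 14528 transcripts, and calls were made at an adjusted p under 0.05. The SE beside a difference is limma's moderated value, from the spread pooled over all 32 groups, and is not the scatter of the compared arrays alone.

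Named transcripts were, in each comparison, the 2 called with the largest difference in each direction, leaving out those named earlier. Over both hosts their arrays had to be apart in both, and for 1 host in that host. From the list of the other populations, the 2 with the largest rise and the 2 with the largest fall there were named. The comparisons of OPNM with the other populations at 1 mating status give counts only. The members, lists and tests were chosen with earlier results of these data known.

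None of the identifiers (0 of 14528) matched the RefSeq gene table of assembly ASM1815372v1 (15130 genes), so gene lists for reproductive functions were not run and no sequences are shown. The correlations of same-numbered deviations lay between -0.631 and 0.057, with 0 of 8 over 0.1. Differently numbered arrays were not compared in this way, so the check does not settle whether replicate numbers pair the samples. Alternatives covered quantile normalization, a common median, a filter on dim transcripts, fewer arrays in the fit, array weights, a trended robust prior, the replicate block, San Quintin pairs kept apart and each OPNM female array left out.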

Additional observations from a re-analysis of the deposited data

Results flagged for a closer look

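In 12 of 124 groups of 4 arrays examined, 1 array lay far from the other 3; chance gives about 1 in 20 such groups. In nonmated females on organ pipe, replicate 4 was low for FBtr0168128 (9.83), FBtr0168501 (8.40), FBtr0168580 (11.29) and FBtr0174527 (8.29), replicate 3 was high for FBtr0163021 (8.65), and replicate 2 was high for FBtr0165289 (10.73). In mated females on organ pipe, replicate 1 was low for FBtr0168580 (10.11) and FBtr0169137 (9.29). On agria, mated replicate 1 stood apart for FBtr0166853 (9.16), mated replicate 2 was low for FBtr0168945 (11.68) and nonmated replicate 2 was high for FBtr0170033 (14.10). The sex index of replicate 1 of mated OPNM males on agria was 1.06, against 3.85 to 4.89 in the other OPNM male arrays.

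Mating differences that differed between groups, by limma's test of the difference itself, numbered 1914 transcripts between OPNM and the other populations and 285 between OPNM females and males. Between populations, the named ones were FBtr0163021 (1.01), FBtr0165853 (1.01), FBtr0170033 (-1.97) and FBtr0163110 (-1.92), as log2 differences of OPNM minus the others. Between the sexes they were FBtr0172616 (1.48), FBtr0168501 (1.44), FBtr0166853 (-1.74) and FBtr0175092 (-1.51), as females minus males.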

How the results depend on the processing

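None of the 24 named transcripts reversed its difference in an alternative; the share of higher calls turned with the scaling, as given above. Each comparison's count of called transcripts stayed within 1.5 times the reported one under quantile normalization, the filter on dim transcripts, the trended robust prior and separate San Quintin pairs. With every array at the same median, 2743 transcripts were called over both hosts, 3335 against the other populations and 454 against males. With array weights, whose estimation did not reach its convergence tolerance, the counts were 5183 over both hosts, 3548 on agria, 1788 on organ pipe, 188 between hosts, 4690 against the other populations, 1130 against males, 4493 for nonmated and 4517 for mated females of OPNM against the others. With only the arrays concerned in the fit they were 32 on organ pipe, 3040 against the other populations, 60 against males and 2410 for nonmated females. Without the 2 arrays least like their group, an alternative chosen after seeing the data, they were 1019, 242 on agria, 401 against the other populations, 131 against males and 274 for mated females. Leaving out 1 OPNM female array at a time gave 1098 to 2168 over both hosts, 466 to 1897 on agria, 32 to 292 on organ pipe, 0 to 9 between hosts, 753 to 2708 against the other populations, 162 to 420 against males, 796 to 1642 for nonmated and 669 to 2021 for mated females. The replicate block, although the numbers share no batch in the labels, gave 1777, 1280, 126, 0, 1901, 272, 1570 and 1479 in that order and moved no count by over 1.5 times; the pairing it assumes had correlations below 0.1. Of the 24 named transcripts, 14 kept their call in every alternative run and 10 lost it in at least 1. Of the lists, 43 to 47 of the 47 raised and 82 to 107 of the 107 lowered transcripts were called in 24 alternatives, the lowest being 82 without those 2 arrays. The cause of these changes was not tested. Background and saturation of the arrays were not examined.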
